A study of Caenorhabditis elegans with 4 samples.

Results

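Autophagy is the process by which a cell wraps part of its own contents in a double membrane, the autophagosome, and delivers it to the lysosome for breakdown. A kinase complex starts the process, a lipid kinase complex marks the membrane on which the autophagosome grows, a pair of ubiquitin-like conjugation systems builds the membrane coat, cargo receptors bring in the material, and tethering factors join the finished autophagosome to the lysosome. In *C. elegans* the helix-loop-helix transcription factor HLH-30, the ortholog of mammalian TFEB, turns on autophagy and lysosome genes, and it is known for its part in fasting and in several long-lived mutants. The genes described here were *unc-51*, *bec-1*, *atg-9*, *atg-18*, *atg-7*, *lgg-1*, *lgg-2*, *sqst-1*, *epg-5* and *hlh-30*. They were chosen by name, through the transcript identifier that the array files give for each probe, and all 10 of 10 were found. They were represented by 26 of the 43603 probes on the array and are 10 of the 19814 genes that could be named.

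Worms of the wild-type strain N2 were kept for 14 days at 25 °C on plates seeded with *E. coli* OP50 and containing 0 µM (NC) or 200 µM remofuscin, which the sample labels call soraprazan. Treatment began on day 1 of adulthood. The study's design names 2 independent experiments, and each array read RNA of many whole worms pooled. The sample titles carry 1 of 2 codes, each found on 1 NC and 1 remofuscin array, and these codes were read here as the experiments, which gives 2 arrays per group. With so few arrays the precision of all values below is low. Replicate 1 of each group is experiment 1 and replicate 2 is experiment 2.

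All 4 arrays were on 1 slide and share 1 scan time. Between 63.32% and 66.58% of the spots that are not controls were well above background by the scanner software's own test, and 0 spots were saturated on each array. Marker genes of intestine, body wall muscle, pharynx, neurons, hypodermis, germline, oocytes, sperm and early embryos were present, and 0 genes of these 9 lists were below background on all 4 arrays. Of the 2 pharynx markers 1 was well above background on all 4 arrays, and of the 4 sperm markers 3 were. In the other lists every marker was. RNA of whole worms does not separate a change in the number of cells of a type from a change in RNA per cell.

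On all 4 arrays 24 of the 26 probes, covering 9 genes, gave signals well above background. The *epg-5* probe and 1 of the 2 *hlh-30* probes were not well above background on any array. The limits used here were 2-fold or more, up or down, together with an unadjusted limma p under 0.05. None (0) of the 24 probes passed them, where 2.85% of 29095 tested probes did (1.84% higher and 1.01% lower in remofuscin-treated worms). At an unadjusted limma p under 0.05 alone 0 of the 24 passed (3.21% of all tested probes), and 0 passed once limma p-values were adjusted over the whole array by the Benjamini-Hochberg method (0.437% of them). The methods' t-test also gave 0 of 24 at an unadjusted p under 0.05 (3.65% of all tested probes). On 24 of 24 probes the signals of the groups overlapped. Across all tested probes, remofuscin-treated worms lay wholly below NC on 11.3% and wholly above NC on 8.49%.

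Signals below are scaled so that the 75th percentile of the probes of an array is 1000. A fold change is the geometric mean in remofuscin-treated worms over that in NC, with the 95% interval of the unpaired limma fit. Signals of different probes cannot be set against each other.

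The kinase UNC-51, the worm counterpart of yeast Atg1, starts the formation of autophagosomes and is also needed for the growth of axons. *unc-51* had 3 probes, all naming transcript Y60A3A.1.1. The brightest gave 607.9 in NC and 526.8 in remofuscin-treated worms in experiment 1, and 1392 and 878.4 in experiment 2. The NC array of experiment 2 was the highest of the 4, and remofuscin-treated worms of that experiment lay above the NC array of experiment 1, so the groups overlapped. The fold change was 0.739 (95% interval 0.331 to 1.65, limma unadjusted p = 0.413, adjusted p = 1.0). Over the 3 probes, the signal of remofuscin-treated worms was lower by between 13.3% and 20.7% in experiment 1 and by between 36.9% and 49.7% in experiment 2. When limma was fitted with experiment as a blocking factor, the other 2 *unc-51* probes were lower at unadjusted p of 0.0154 and 0.0302, and they were the only ones of the 24 under 0.05. Of all tested probes, 5.78% were lower and 6.24% higher at that level. Their adjusted p was 0.197 and 0.310, and 0 of the 24 passed after adjustment, where 5.09% of all tested probes did. Without NC replicate 1, the brightest probe had a log2 fold change of -1.03 (limma unadjusted p = 0.0313, adjusted p = 0.405), and without NC replicate 2 it was 0.16.

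BEC-1, the worm Beclin, is a subunit of the lipid kinase complex that acts next. The single *bec-1* probe (T19E7.3.1) gave 9870 in NC and 11972 in remofuscin-treated worms in experiment 1, and 8325 and 9567 in experiment 2. *bec-1* was the 1 measured gene whose signal was higher with remofuscin in both experiments, with ratios of 1.21 and 1.15. Across all tested probes, 25.8% were higher in both. The NC array of experiment 1 was above remofuscin-treated worms of experiment 2, so the groups overlapped. The fold change was 1.18 (95% interval 0.644 to 2.17, limma unadjusted p = 0.547).

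ATG-9 is a membrane protein that brings lipid to the growing autophagosome, and ATG-18 binds the lipid mark made by the BEC-1 complex. The *atg-9* probe for transcript T22H9.2a gave 5795 in NC and 5444 with remofuscin in experiment 1, and 10480 and 9392 in experiment 2. The probe for T22H9.2b was dim but well above background, at 79.8 and 72.5 in experiment 1 and 120.9 and 105.6 in experiment 2. Both probes were high in experiment 2 and low in experiment 1, whatever the treatment. Their fold changes were 0.918 (95% interval 0.437 to 1.93) and 0.891 (95% interval 0.458 to 1.73).

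The brightest *atg-18* probe (F41E6.13b.1) gave 8190 in NC and 8638 with remofuscin in experiment 1, and 12893 and 10740 in experiment 2. Here the experiments went in opposite directions, with ratios of 1.05 and 0.833, and the fold change was 0.937 (95% interval 0.489 to 1.80, limma unadjusted p = 0.825). The other 2 probes, for transcript F41E6.13a, were lower with remofuscin in both experiments, by 6.52% and 6.85% on the first and by 1.89% and 26.7% on the second. The 3 probes therefore did not have the same sign in experiment 1.

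ATG-7 is the enzyme that activates the ubiquitin-like proteins of both conjugation systems. Its brightest probe (M7.5.1) gave 7118 in NC and 7970 with remofuscin in experiment 1, and 8701 and 8109 in experiment 2. The second probe gave 3633 and 3719, then 3516 and 3455. On both probes the 4 signals lay close together and the experiments differed in sign, with fold changes of 1.02 (95% interval 0.563 to 1.85) and 1.00 (95% interval 0.557 to 1.80), and the sign of the first turned to a log2 value of -0.06 under quantile normalization.

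LGG-1 and LGG-2 are the worm members of the Atg8 family, which are joined to lipid on the autophagosome membrane. LGG-1 resembles mammalian GABARAP and LGG-2 resembles LC3, and tagged LGG-1 is the usual marker of autophagosomes in worms. The brightest *lgg-1* probe (C32D5.9.2) gave 115961 in NC and 107549 with remofuscin in experiment 1, and 75435 and 85219 in experiment 2. Its second probe gave 42501 and 37725, then 24607 and 26125. On both probes *lgg-1* was lower with remofuscin in experiment 1 and higher in experiment 2, and both arrays of experiment 1 were above both of experiment 2. Their fold changes were 1.02 (95% interval 0.536 to 1.96) and 0.971 (95% interval 0.485 to 1.94).

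*lgg-2* was covered by 9 probes, 7 naming ZK593.6.1 and 2 naming ZK593.6.2. The brightest gave 6630 in NC and 6095 with remofuscin in experiment 1, and 10865 and 7504 in experiment 2. The NC array of experiment 2 stood above the other 3, which lay close together. The fold change of this probe was 0.797 (95% interval 0.412 to 1.54, limma unadjusted p = 0.451), and over the 9 probes the fold change ran from 0.751 to 0.813. All 9 probes were lower with remofuscin in both experiments, by between 7.71% and 12.1% in experiment 1 and by between 26.1% and 38.7% in experiment 2. The probes read the same RNA samples and are not replicates of the treatment. In NC, the signal of experiment 2 was between 1.53 and 1.76 times that of experiment 1 on these probes, and with remofuscin between 1.17 and 1.35 times. Without NC replicate 2 the log2 fold change of the brightest probe was 0.03, a value that sets remofuscin-treated worms of both experiments against NC of experiment 1 alone.

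SQST-1 is a cargo receptor that carries ubiquitinated proteins into the autophagosome, and the protein is itself degraded there. The *sqst-1* probe (T12G3.1.1) gave 9413 in NC and 7460 with remofuscin in experiment 1, and 16685 and 10694 in experiment 2. The signal was 20.7% lower with remofuscin in experiment 1 and 35.9% lower in experiment 2. Remofuscin-treated worms of experiment 2 were still above NC of experiment 1, so the groups overlapped. The fold change was 0.713 (95% interval 0.354 to 1.43, limma unadjusted p = 0.298, adjusted p = 1.0), and its log2 value stayed negative with any 1 array left out, between -0.90 and -0.08.

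EPG-5 tethers autophagosomes to late endosomes and lysosomes. The *epg-5* probe (C56C10.12) gave 6.0 in NC and 4.7 with remofuscin in experiment 1, and 19.2 and 7.3 in experiment 2, none of them well above background. It allows no statement on the treatment, and no fold change is given.

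For the regulator *hlh-30*, the probe for transcript W02C12.3g.1 gave 200.7 in NC and 167.5 with remofuscin in experiment 1, and 420.9 and 266.1 in experiment 2. The signal was 16.5% lower with remofuscin in experiment 1 and 36.8% lower in experiment 2. The NC array of experiment 2 was again the highest, and remofuscin-treated worms of experiment 2 were above NC of experiment 1. The fold change was 0.726 (95% interval 0.338 to 1.56, limma unadjusted p = 0.366, adjusted p = 1.0), so that the interval holds no rise of 2-fold in remofuscin-treated worms after 14 days. Without NC replicate 2 the log2 fold change was 0.07, and without NC replicate 1 it was -1.0. Each of these values sets remofuscin-treated worms of both experiments against NC of the remaining experiment alone. The probe for W02C12.3c gave 4.6 and 7.6 in experiment 1 and 13 and 11.1 in experiment 2, none well above background, and no fold change is given for it.

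**Figure D1:**
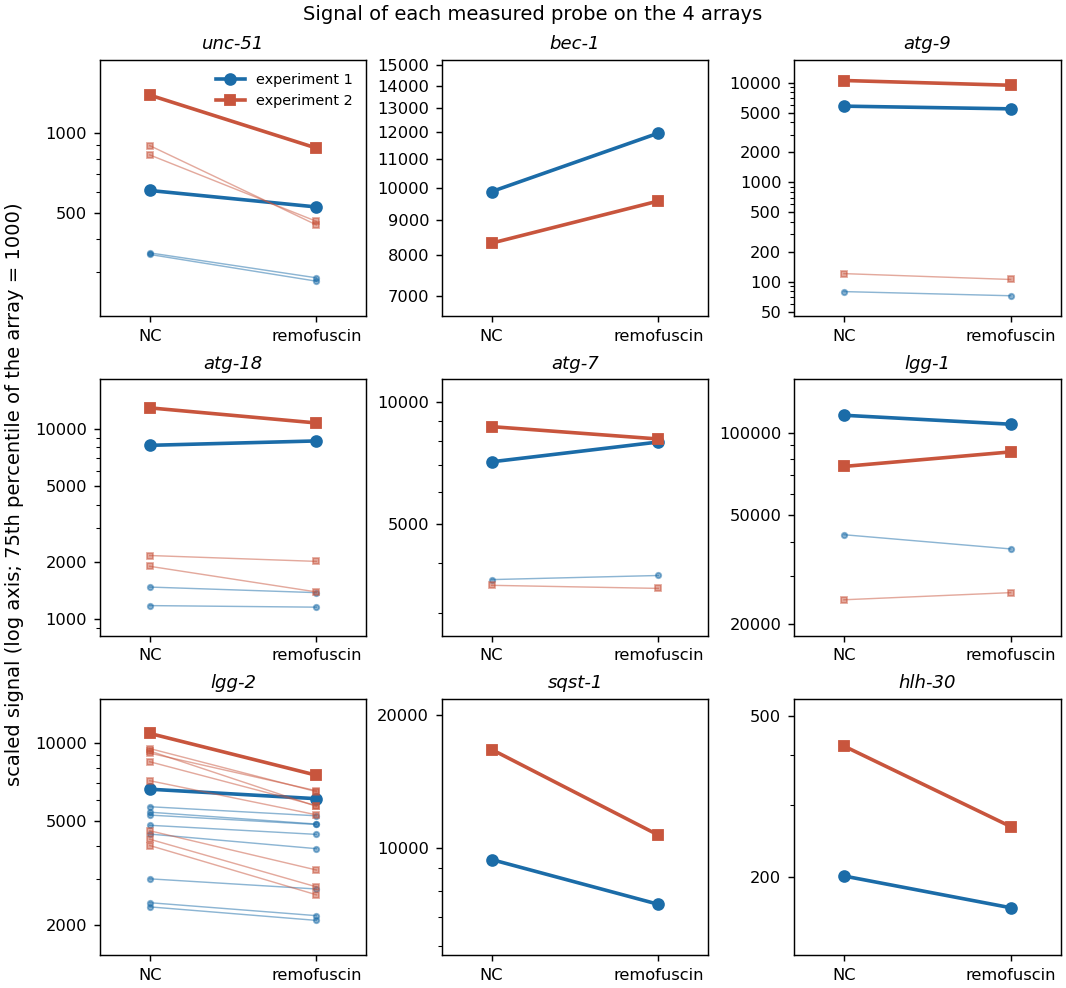
Scaled signal (log axis, different in each panel) of the 24 probes of 9 genes that were well above background, in NC and remofuscin-treated worms. Each line joins the 2 arrays of 1 experiment (circles and blue for experiment 1, squares and red for experiment 2), thick for the brightest probe of a gene and thin for the others. For *hlh-30*, *sqst-1*, *unc-51*, *lgg-2* and, less steeply, *atg-9* both lines slope down and the line of experiment 2 starts higher, and for *bec-1* both lines slope up.

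Within the experiments, 18 of the 24 probes were lower with remofuscin in both, 1 was higher in both and 5 went in opposite directions. Of all tested probes, 33.0% were lower in both. The 18 probes belong to 6 genes and include all 9 of *lgg-2*. With 1 probe per gene, 5 of the 9 genes (*unc-51*, *atg-9*, *lgg-2*, *sqst-1* and *hlh-30*) were lower in both, 1 was higher and 3 were of opposite sign, where 31.1% of 14756 tested genes were lower in both. On 18 of the 18 probes the difference was larger in experiment 2, although for 1 *atg-18* probe the margin was small (6.52% against 6.85%). Of all tested probes that were lower in both, 69.6% had the larger difference in experiment 2. In the unpaired limma fit none of the 24 probes had an unadjusted p under 0.05. With experiment as a block, 2 of the 18, both of *unc-51*, had an unadjusted limma p under 0.05, and 0 did after adjustment. The count of 18 was 18 with each array set to its median, 20 under quantile normalization and 18 under normexp background correction. With the deposited log2 values, which are not scaled between arrays, it was 3, and 15.9% of all tested probes were then lower in both.

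The median log2 fold change of the 9 measured genes was -0.12, with a range from -0.49 for *sqst-1* to 0.24 for *bec-1*, and the median of all tested genes was 0.00. With *epg-5* taken at its fitted value, although it was not well above background, the median of the 10 genes was -0.23. The upper end of the 95% interval was under a 2-fold rise for 23 of the 24 probes, all but *bec-1*. The lower end was above a 2-fold fall for 4 of the 24, so that for the other probes this fit leaves a fall of that size within the interval. These intervals are from the unpaired fit, which counts the difference between the experiments as error. Its standard errors ran from 0.37 to 0.52 on the log2 scale. With experiment as a block the standard error was 0.27 on each probe, and intervals of that fit are not given here.

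**Figure D2:**
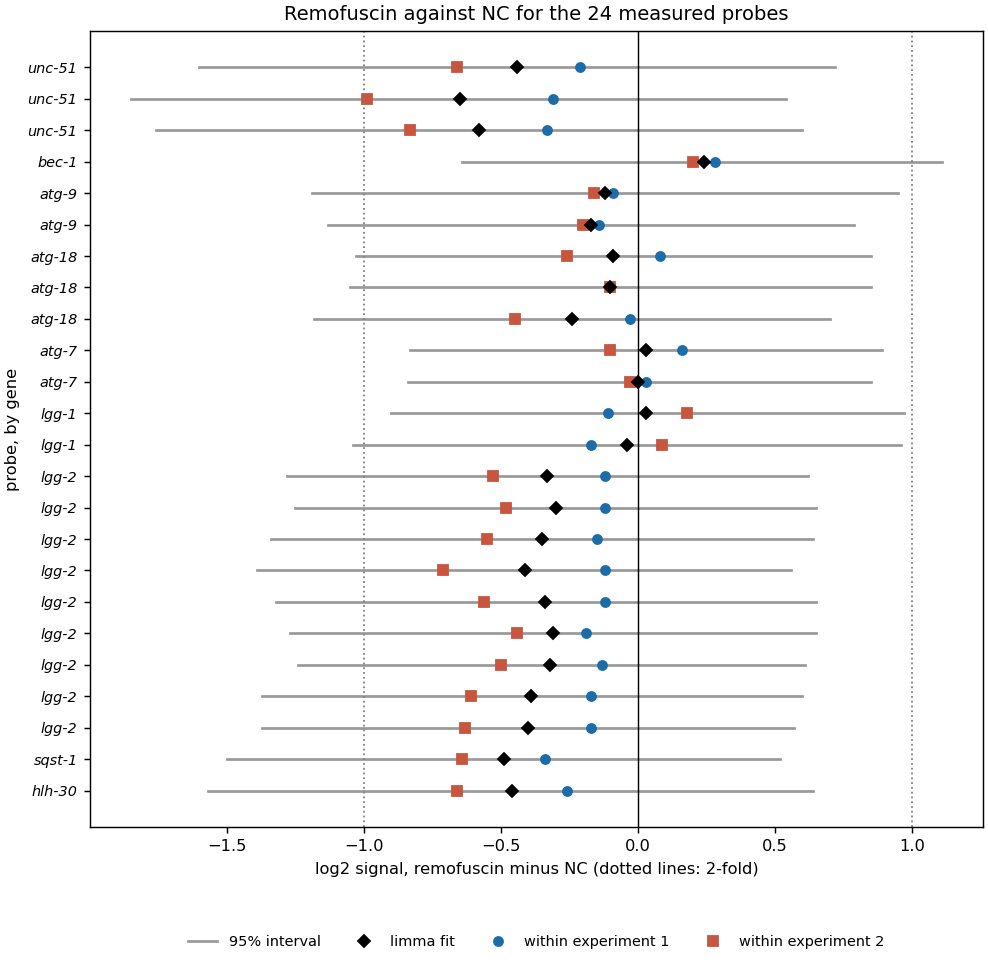
Log2 signal of remofuscin-treated worms minus NC for the 24 measured probes. Diamonds are the limma fit with its 95% interval (grey bar), circles the difference within experiment 1 and squares that within experiment 2; the dotted lines mark 2-fold. All 24 intervals cross 0, and for the 9 *lgg-2* probes and the 3 *unc-51* probes both experiments lie to the left of 0.

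The experiments also differed from each other. On 23 of the 24 probes the difference between the 2 NC arrays was larger than the difference between NC and remofuscin within either experiment, as it was for 72.5% of all tested probes that were well above background on the 4 arrays. The difference between the 2 remofuscin arrays was larger than both on 10 of the 24, against 45.4% of all such probes, and on all 9 *lgg-2* probes and that of *sqst-1* it was not. In both groups, 20 of the 24 probes were higher in experiment 2 than in experiment 1, against 35.1% of all tested probes. The 20 include all 9 probes of *lgg-2*, which are 1 gene read from the same RNA samples, so the probe count overstates the number of genes. *unc-51* was between 2.29 and 2.54 times higher in NC of experiment 2 than in NC of experiment 1, and *hlh-30* was 2.10 times higher. With remofuscin these ratios were smaller, between 1.58 and 1.68 for *unc-51* and 1.59 for *hlh-30*. *sqst-1* had ratios of 1.77 in NC and 1.43 with remofuscin. The probes that ran the other way were that of *bec-1*, both of *lgg-1* and the dimmer of *atg-7*, which were lower in experiment 2 in both groups.

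Marker genes of other tissues also differed between the experiments. Of the germline markers (*pgl-1*, *glh-1*, *gld-1* and *glp-1*), 4 of 4 were measured, and their summed signal was 50669 in NC and 50971 with remofuscin in experiment 1, and 82582 and 74520 in experiment 2. The 6 of 6 oocyte and eggshell markers measured summed to 144813 and 141439 in experiment 1 and to 222117 and 188672 in experiment 2. The 3 of 3 body wall muscle markers measured summed to 613 and 838, then 1523 and 1673. In all, the summed signal was higher in experiment 2 in both groups for 8 of the 10 marker lists, those of intestine, pharynx, neurons, sperm and moulting among them. It was lower in both groups for 2, the hypodermis markers and the early embryo markers, which summed to 522 and 539 in experiment 1 and to 370 and 439 in experiment 2. A sum follows its brightest probes. For the sperm markers, the median log2 difference of experiment 2 minus experiment 1 was below 0, at -0.36 in NC and -0.09 with remofuscin. Over all tested genes this median was -0.26 in NC and -0.18 with remofuscin. The part of these cell types in the signals of the autophagy genes was not tested. Between the treatments, 2 of 3 hypodermis markers and 3 of 9 tested moulting markers rose with remofuscin past the same limits of limma p and fold. Of the 9 measured autophagy genes 0 did. Only 3.12% of 14756 tested genes passed these limits (329 higher and 132 lower), so that a count of 0 in a list of 9 sets it little apart. The summed signal of the 3 hypodermis markers was 5775 and 5092 in NC and 15051 and 14324 with remofuscin. That of the 10 moulting markers was 1111 and 1907 in NC and 2527 and 3626 with remofuscin. Of these 10, 1 was at background on all arrays. The larger sums do not stand for every marker. Log2 values of the 3 hypodermis markers ran from 0.09 to 2.54. Those of the 9 tested moulting markers ran from -0.21 to 5.48, around a median of 0.05. Of these 9, 4 were higher with remofuscin in both experiments, 1 was lower in both and 4 were of opposite sign.

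**Figure D3:**
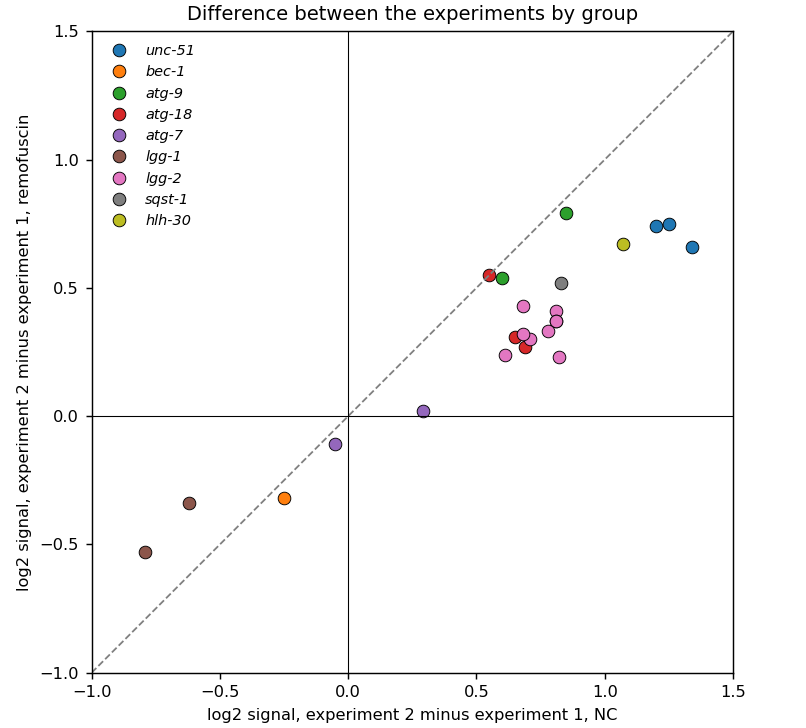
Log2 signal of experiment 2 minus experiment 1 in NC (x axis) and in remofuscin-treated worms (y axis), 1 point per measured probe and 1 colour per gene; on the dashed line the groups differ alike. Of the 24 points, 20 lie to the upper right, where both groups were higher in experiment 2, and *lgg-1* lies lowest.

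Over the 4 arrays, the tested genes whose pattern was nearest to that of *hlh-30* were *nhr-35*, *his-24* and *camt-1*, out of 13535 genes well above background on all arrays. The measure was the Euclidean distance between the mean-centred log2 signals, which was 0.042, 0.047 and 0.047. Among the autophagy genes, *unc-51* was nearest at 0.11, with 0.273% of genes nearer, and *sqst-1* followed at 0.20 with 2.00% nearer. *lgg-2* and *atg-9* were at 0.39 and 0.38, and *lgg-1* was farthest at 1.47. These distances rest on 4 arrays, on each of which the genes share their RNA sample.

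A list of 46 further genes of the pathway was drawn up by role, of which 45 were found on the array and all 45 were well above background on the 4 arrays. By the same limits 0 of them rose and 0 fell, and the smallest unadjusted limma p was 0.247. Of all tested genes, 3.12% passed these limits. The median log2 fold change of the 45 genes was -0.11, with 17 lower in both experiments, 11 higher in both and 17 of opposite sign. Over all tested genes, 31.1% were lower in both and 29.0% higher in both. The groups did not overlap for 4 genes that were lower with remofuscin and for 3 that were higher, where the shares of all tested probes were 11.3% and 8.49%.

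The initiation genes that work with *unc-51* were *atg-13* and *epg-9*, with log2 fold changes of 0.25 and -0.32. Of the subunits that work with *bec-1*, the lipid kinase *vps-34* had a log2 fold change of -0.35, its partner *vps-15* -0.10 and *epg-8* 0.23. The 8 conjugation genes, which act with *atg-7* on the LGG proteins, had a median of 0.17 and ran from -0.50 to 0.52. *atg-10*, the enzyme that joins the Atg12 homolog to ATG-5, gave 5292 in NC and 5925 with remofuscin in experiment 1, and 2361 and 4345 in experiment 2. Its groups overlapped (limma unadjusted p = 0.308), and it passed the unadjusted limits without NC replicate 1 (log2 fold change 1.1, unadjusted p = 0.0215, adjusted p = 0.361). *atg-4.1*, a protease that trims the LGG proteins, gave 378.4 and 369.7 in experiment 1 and 500.7 and 255.4 in experiment 2. Both remofuscin values of *atg-4.1* were below both NC values, though in experiment 1 by a small margin (limma unadjusted p = 0.247).

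The lipid transfer gene *atg-2* had a log2 fold change of -0.36 and the 12 cargo and maturation genes had a median of -0.12, between -0.29 and 0.15. The 4 genes of mitophagy and allophagy, the removal of mitochondria and of paternal organelles, lay between -0.17 and 0.17. Among 14 genes of nutrient signalling and of the control of HLH-30, the median was -0.11. *rheb-1*, a small GTPase that activates the TOR kinase, gave 5963 in NC and 8144 with remofuscin in experiment 1, and 4262 and 6084 in experiment 2. Its values with remofuscin were above both NC values (log2 fold change 0.48, limma unadjusted p = 0.263). *raga-1*, a second GTPase upstream of TOR, had a log2 fold change of 0.31 and *aak-1*, a catalytic subunit of the energy sensor AMPK, of -0.44. The TOR kinase gene *let-363* had a value of -0.27, the exportin gene *xpo-1* -0.24 and *mxl-3*, a repressor that opposes HLH-30, 0.06.

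**Figure D4:**
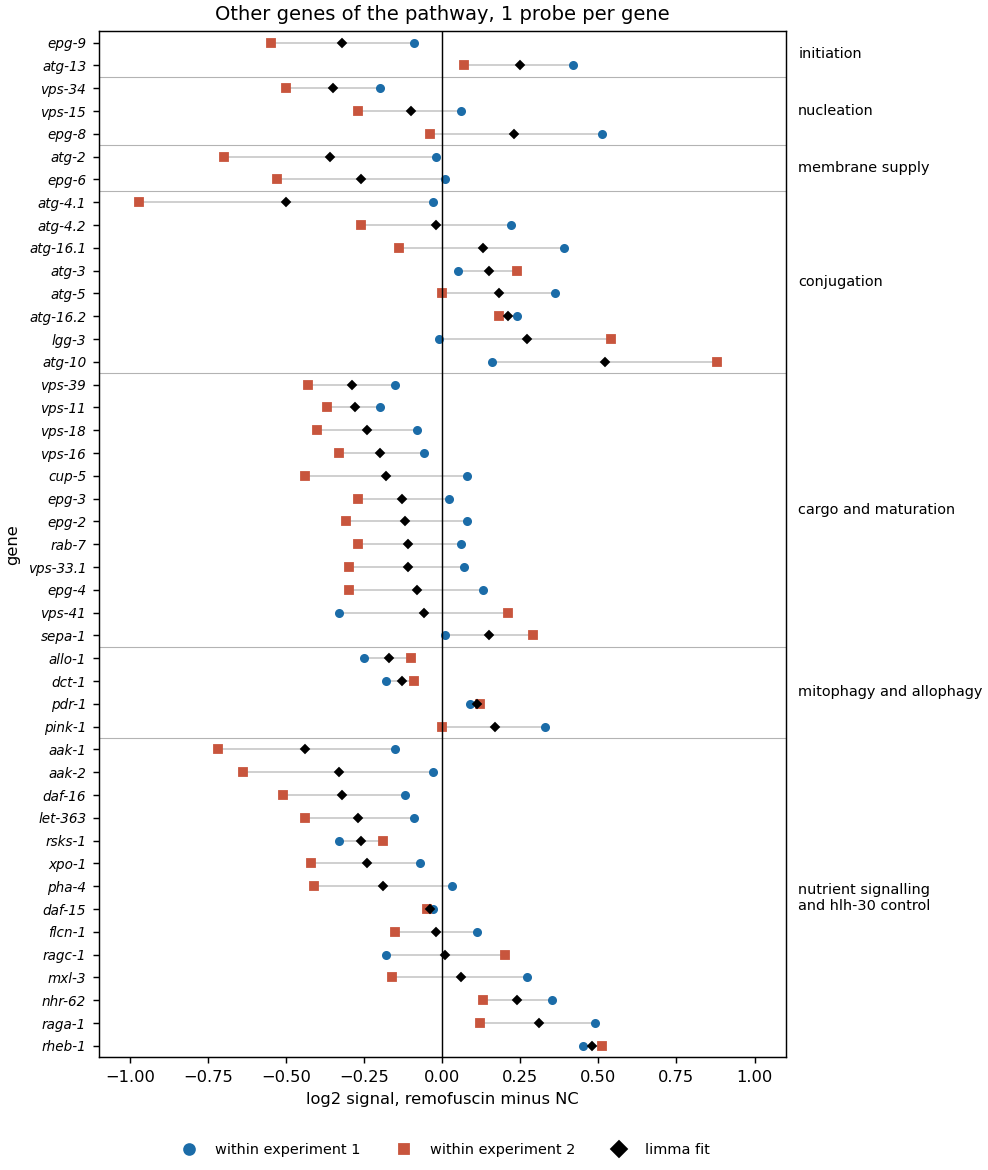
Log2 signal of remofuscin-treated worms minus NC for the 45 other genes of the pathway, 1 probe per gene, grouped by role. Circles and squares are the differences within experiments 1 and 2, joined by a grey line, and diamonds the limma fit, which runs from -0.50 for *atg-4.1* to 0.52 for *atg-10*.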

How the data were processed

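For the 1-colour Agilent arrays the authors deposited scanner files from Feature Extraction (version 11.5.1.1 per the file headers), which hold intensity values corrected for background within the array and not scaled between arrays. The table of log2 values that the authors deposited matched the logged intensity to within 0.01 for 99.97% to 99.99% of its entries per array, and is therefore neither scaled nor centred. Spots marked as outliers (8 to 38 an array) and control spots were left out. Replicate spots were averaged per probe, and log2 intensity was expressed relative to the 75th percentile of its array. A probe had to be well above background on 2 or more of the 4 arrays, and these were tested with limma 3.58.1 in R 4.3.3, remofuscin minus NC, two-sided, with Benjamini-Hochberg adjustment over all tested probes. The prior standard deviation was 0.42, on 6.23 degrees of freedom. The limits of p under 0.05 and 2-fold are those of the methods.

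Probes were named through a RefSeq gene table of the WBcel235 assembly (34320 of 43603 probes). The array design uses another build, so no positions are given, and probe sequences were not compared. A gene is represented by its brightest probe by mean signal. The genes named were every member and, of the other pathway genes, any past the limits and the 3 with the highest and the 3 with the lowest fitted log2 fold change, beside examples of each role, chosen after their values were seen. The members and lists were chosen with earlier results of these data known. *atg-11* was not matched to a probe and is not analysed here.

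A code in the sample titles, shared by an NC and a remofuscin array, was read as the experiment, and so pairs the samples. The difference between experiments in NC correlated with that in remofuscin-treated worms (Pearson 0.736, Spearman 0.763, over 29061 probes, which are not independent replicates). With the experiment as a block, limma gave every probe 1 common standard deviation (0.27). The unpaired limma steps were also run on simulated arrays with independent noise, no difference between experiments and added changes of more than 2-fold. That setting differs from these data, so nothing on the autophagy genes is drawn from it. Figures were drawn with matplotlib 3.10.9 in Python 3.11.15.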

Additional observations from a re-analysis of the deposited data

How the results depend on the processing

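The results were recomputed under 15 alternatives: median scaling, quantile normalization, normexp background correction, the deposited log2 values, the methods' t-test, an intensity trend, no filter on dim probes, a filter on all 4 arrays, outlier spots kept, probes averaged per gene, a replicate block for the experiment, and each array left out. The count of autophagy genes past the limits was 0 in all but 1 of them. With arrays left out it ran from 0 to 2, the 2 being *unc-51* and the dim *epg-5* without NC replicate 1, and the count of other pathway genes from 0 to 1 (*atg-10*). The replicate block, the methods' t-test, the intensity trend and the changes of filter left the fold changes of the autophagy genes as fitted. All of these were under 2-fold in size, so the 0 calls in these settings were fixed in advance. What the block changed was the p-value, as given above for *unc-51*. The median of the 10 genes (-0.23), which takes the dim *epg-5* at its fitted value, ran from -0.62 to 0.09 with arrays left out. It was -0.14 with probes averaged per gene, and without *epg-5* the main value was -0.12. *atg-7* turned to -0.06 under quantile normalization, and *lgg-1* to -0.0046 with the mean of its probes. With arrays left out, log2 fold changes ran from -0.11 to 0.18 for *atg-7*, from -0.28 to 0.34 for *lgg-1*, from -0.68 to 0.03 for *lgg-2*, from -0.55 to 0.30 for *atg-9*, from -0.42 to 0.23 for *atg-18*, from -1.03 to 0.16 for *unc-51* and from -1.0 to 0.07 for *hlh-30*. A group short of 1 array is compared partly across experiments, and its single array is assumed to vary like the other group. The count of probes lower in both experiments was 3 with the deposited log2 values, an alternative for this count chosen after seeing the data. Over all tested probes, 830 passed the limits, against 399 by the methods' t-test, 427 under the filter on all arrays, 438 genes by the mean of probes, 220 under normexp (92.7% of them higher, against 64.5%), 1474 without a filter, and 611 to 2573 with arrays left out. The signal over background limits only *epg-5* and the dim *hlh-30* probe.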
